A study of Mus musculus with 3 samples.

Results

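Interferon gamma, interleukin 2, colony stimulating factor 1 and 7 ligands of the tumour necrosis factor (TNF) superfamily were followed in mouse CD8 T cells that recognise a viral antigen. The 10 genes, Ifng, Tnf, Fasl, Lta, Ltb, Tnfsf8, Tnfsf10, Tnfsf11, Csf1 and Il2, were chosen by name, and all 10 of them were found among the 31053 genes of the count matrices. The cells came from P14 mice, which carry a transgenic T cell receptor for a glycoprotein peptide of lymphocytic choriomeningitis virus (LCMV), crossed to a TCF-1-GFP reporter. For the TdLN and PBMC groups, C57BL/6 mice received naive CD44- GFP+ P14 cells 8 days after subcutaneous B16.F10 melanoma cells expressing the LCMV glycoprotein, and CD45.1+ CD44+ CD8 cells were sorted 16 days after the transfer from tumour-draining lymph node (TdLN) and from blood mononuclear cells (PBMC). For the memory group, CD45.1+ CD44+ KLRG1- CD127+ CD62L+ CD8 cells were sorted 200 days after an acute LCMV infection. The labels give strain C57BL/6 and a wild-type genotype for all 3 groups, and state neither how many mice each library pooled nor the tissue of the memory cells. All groups were thus labelled as cells of the same receptor and reporter, while time, the antigen's source and the sort gate differ together between memory and the other groups and cannot be told apart.

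Each group was 1 droplet library of unique molecular identifier (UMI) counts, so differences between groups have no replicate check and no test; 95% intervals given here cover counting error only. After a filter on cells (at least 500 genes, at most 10% mitochondrial counts) and after clusters with markers of other cell types were left out, 6081 TdLN, 5514 PBMC and 6997 memory T cells remained, with median depths of 9745, 7078 and 9958 UMIs. Cd8b1, which encodes a CD8 chain, stood at 1044, 1151 and 1066 CPM in these libraries, where CPM is the count divided by the summed T cell counts of the library and scaled to 1e6. The 4 markers of CD4 T cells had a summed level of 1.97 CPM for TdLN, 3.64 CPM for PBMC and 10.8 CPM for memory, with Cd4 at 0 counts in PBMC. Between 6 and 15 cell barcodes of the filtered cells were shared by a pair of libraries.

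The blood library stood apart in its receptor transcripts. The P14 receptor uses the beta chain segment Trbv13-3. Among T cells in which UMIs of only 1 kind of beta V segment were read (Trbv13-3 or any other), Trbv13-3 was the one read in 90.03% of 1564 TdLN cells (95% Clopper-Pearson interval 88.4 to 91.5), 65.7% of 1415 PBMC cells (63.1 to 68.1) and 96.4% of 3131 memory cells (95.6 to 97.0). Most T cells gave no beta V UMI, 4474, 4021 and 3751 of them in the 3 libraries, so the receptor of most cells is unknown. The library levels of the genes in blood are therefore also given for Trbv13-3 cells alone, except for Csf1 and Tnfsf11, which had 2 and 1 UMIs in such PBMC cells. Genes outside the 10 are given for all T cells only.

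Interferon gamma activates macrophages and raises antigen presentation in the cells it reaches, and with TNF it is a main cytokine of activated CD8 T cells. The TNF superfamily ligands are mostly membrane proteins that act as trimers on receptors of neighbouring cells. Fas ligand (Fasl) and TRAIL (Tnfsf10) signal through death receptors, lymphotoxin alpha and beta (Lta, Ltb) shape lymphoid tissue, and CD30 ligand (Tnfsf8) and RANK ligand (Tnfsf11) act on lymphoid and myeloid cells. Il2 encodes a T cell growth factor and Csf1 a growth factor of macrophages. Several of these mRNAs are short-lived because proteins such as tristetraprolin, encoded by Zfp36, bind AU-rich elements in their 3′ untranslated regions.

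The genes differ in how many of those elements they carry. The following windows of 30 bases hold the most copies of the pentamer ATTTA in the 3′ untranslated region of each gene (GENCODE M21 annotation, GRCm38, transcript strand, 5′ to 3′), with every copy in capitals; Tnf, Ifng and Il2 are shown as the densest and Fasl as a sparse one.
Tnf, chr17:35199679-35199708, minus strand: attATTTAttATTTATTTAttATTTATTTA
Ifng, chr10:118445330-118445359, plus strand: aacctATTTAttaatATTTAaaactATTTA
Il2, chr3:37121040-37121069, minus strand: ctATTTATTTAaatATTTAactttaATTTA
Fasl, chr1:161780775-161780804, minus strand: gctgtttttctttaatacaactagtATTTA
Over the whole region Tnf has 8 pentamers in 764 bases, Ifng 6 in 631, Il2 7 in 581, Lta 3 in 572 and Fasl 1 in 887. Ltb has none in its 156 bases. At least 1 pentamer is found in 61.7% of 20993 genes and 5 or more in 19.1%. The longer element TTATTTATT occurs 5 times in Tnf (overlapping copies counted), once each in Lta and Il2, and in none of the other 7, against 6.98% of all genes with at least 1. Ltb, Tnf and Lta lie side by side on chromosome 17, with 3060 bases between Ltb and Tnf and 1157 between Tnf and Lta.

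The promoters of Ifng and Fasl are shown because both genes were high in the same states of the blood. The 250 bases before each start are shown from RefSeq (GRCm38.p6), 5′ to 3′ on the gene's strand, with the NFAT core GGAAA, on either strand and so also as TTTCC, and the TATA box TATAAA in capitals.
Ifng, chr10:118440796-118441045, plus strand: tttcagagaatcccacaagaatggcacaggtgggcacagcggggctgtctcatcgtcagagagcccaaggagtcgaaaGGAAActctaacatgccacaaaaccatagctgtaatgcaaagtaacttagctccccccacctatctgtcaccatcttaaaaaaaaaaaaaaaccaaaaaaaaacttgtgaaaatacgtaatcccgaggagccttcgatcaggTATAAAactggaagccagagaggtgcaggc
Fasl, chr1:161788496-161788745, minus strand: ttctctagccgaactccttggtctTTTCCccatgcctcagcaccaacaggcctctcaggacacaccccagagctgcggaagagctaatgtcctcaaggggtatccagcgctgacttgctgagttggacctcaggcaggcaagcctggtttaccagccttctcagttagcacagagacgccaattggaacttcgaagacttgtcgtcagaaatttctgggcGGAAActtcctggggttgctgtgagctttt
The NFAT core occurs once in the Ifng window and in 2 places in the Fasl window, and in 55.6% of 32841 promoters. A TATA box starts at position -30 of Ifng and is not among the letters of the Fasl window, and 12.4% of promoters hold one. The AP-1 motif TGANTCA and the T-box core TCACACC, searched on both strands, are in neither window, and in 6.75% and 3.33% of promoters. A match describes letters and shows no binding.

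Only 4 of the 10 genes, Ifng, Fasl, Ltb and Tnfsf8, reached 20 CPM in the higher library of each comparison, the limit set for counting a gene as measured. Fasl was 2-fold or more lower in TdLN than in memory and than in PBMC, and no measured gene of the 10 passed 2-fold between PBMC and memory. Of all measured genes, 5.88% passed 2-fold either way for TdLN over memory (3.96% higher and 1.92% lower), 4.6% for TdLN over PBMC (2.68% higher and 1.92% lower) and 2.32% for PBMC over memory (1.66% higher and 0.661% lower). The median log2 ratio of the 4 was -0.24 for TdLN over memory, 0.03 for TdLN over PBMC and 0.09 for PBMC over memory, beside 0.16, 0.11 and 0.05 over all measured genes. The other 6 genes are described by their counts.

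**Figure D1:**
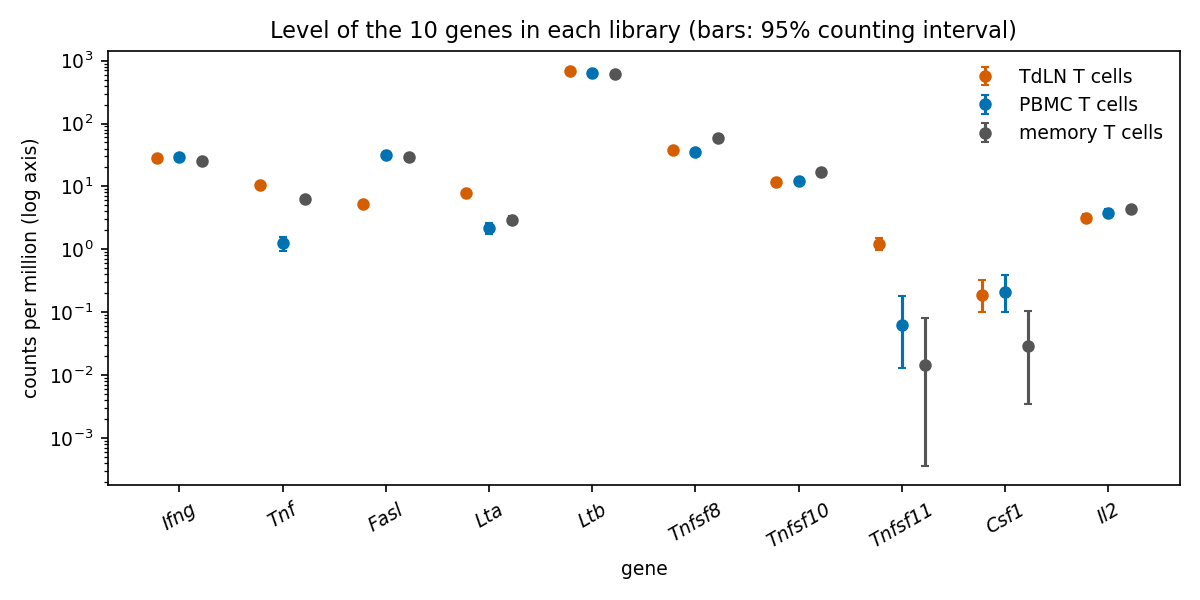
Level of each of the 10 genes (CPM, log axis) in TdLN, PBMC and memory T cells, with 95% Poisson intervals. Ifng stood between 25.3 and 29.8 and Ltb between 616 and 690, Fasl was low in TdLN, Tnf was low in PBMC, and Tnfsf11 had 83 UMIs in TdLN, 3 in PBMC and 1 in memory.

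Ifng had 28.3 CPM in TdLN T cells (95% Poisson interval 27.0 to 29.6; 1940 UMIs), 29.8 CPM in PBMC (28.3 to 31.4; 1426 UMIs) and 25.3 CPM in memory (24.1 to 26.5; 1771 UMIs). TdLN and PBMC were not separated by counting error, at a ratio of 0.948 for TdLN over PBMC (0.885 to 1.02). This near-equal level was reached by different distributions over cells. With every cell thinned to 4200 UMIs, which left out 89 TdLN, 495 PBMC and 271 memory cells, at least 1 Ifng UMI was found in 6.44% of TdLN cells, 14.2% of PBMC cells and 9.83% of memory cells; without thinning the shares were 11.4%, 19.4% and 19.9%. These shares put memory above TdLN, where the CPM put TdLN above memory, and they are not read as an order of expression. The variance of thinned counts divided by their mean was 2.51 in TdLN, 1.35 in PBMC and 1.15 in memory, where counts spread evenly over cells would give 1. As a background for free RNA, 1 of 74 B cells of the TdLN library had an Ifng UMI (1.35%, median depth 4465 UMIs). Of the 110 TdLN cells with macrophage, monocyte or dendritic markers, 2 had an Ifng UMI (1.82%, median depth 2422 UMIs). Those 2 cells held 13 UMIs, so the group stood at 25.0 CPM (13.3 to 42.8), near the T cell level.

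The upper end of the distribution differed most. In TdLN, 102 cells carried 5 or more Ifng UMIs and held 48.8% of all Ifng UMIs of the library, with up to 32 UMIs in a cell. PBMC had 7 such cells with 2.95% of the Ifng UMIs and a highest count of 9, and memory had 11 with 4.69% and a highest count of 13. The 102 TdLN cells were deeper than TdLN cells without Ifng, at medians of 14104 and 9622 UMIs, and the part of depth in the count was not tested. CPM scales by total counts but does not undo the choice of deeper cells by a raw UMI count. The TdLN cells with 5 or more had 3.44-fold the CPM of Bhlhe40 (2.67 to 4.38) over cells with none. Bhlhe40 encodes a transcription factor that promotes cytokine production in T cells. Tbx21, which encodes T-bet, was 2.36-fold in the cells with 5 or more (1.70 to 3.21). Tnf was 1.83-fold higher in them (1.29 to 2.55) and Ltb 0.749-fold (0.705 to 0.797). Genes of DNA replication and mitosis led the list, among them Tyms at 4.54-fold and Mki67 at 3.57-fold. Cycling TdLN cells had a median depth of 27729 UMIs, against 9603 in the other TdLN T cells. The part of depth in this lead was not tested. Of 12 receptor response genes, 4 had intervals above 1, 1 below 1 and 7 on both sides of it. Irf8 was 2.41-fold (1.72 to 3.29), Tnfrsf9 2.15-fold (1.54 to 2.93), Egr2 1.85-fold (1.18 to 2.77), Nr4a1 1.60-fold (1.18 to 2.13) and Egr3 0.477-fold (0.237 to 0.858). In the 11 memory cells with 5 or more Ifng UMIs, Tnfrsf9 was 48.2-fold (23.2 to 90.5; 11 UMIs) and Cd69 4.497-fold (3.21 to 6.14) the level in memory cells with none. In the 7 PBMC cells with 5 or more, Cd69 was 0.118-fold (0.00298 to 0.656), from 1 UMI, and Tnfrsf9 had 0 UMIs. All these cells were picked by their Ifng count, so the comparison is a description.

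**Figure D2:**
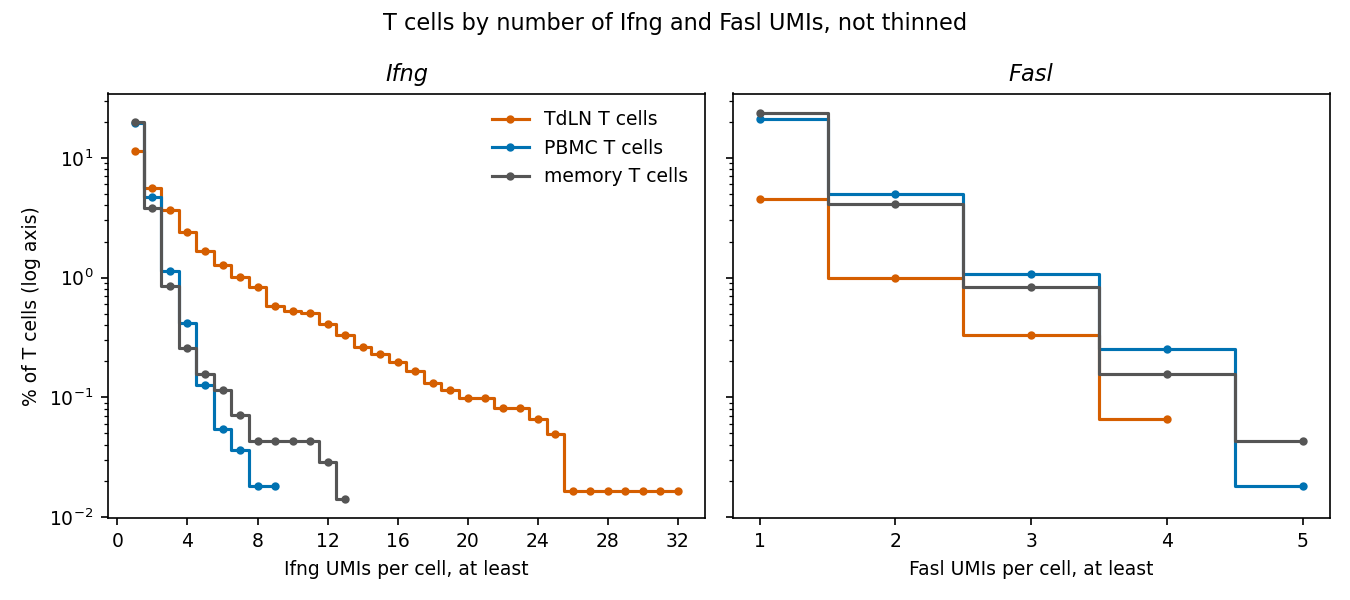
Share of T cells (log axis) with at least the given number of Ifng UMIs (left) or Fasl UMIs (right) in TdLN, PBMC and memory, not thinned. The TdLN curve of Ifng starts lowest at 1 UMI and reaches 32 UMIs, against 9 in PBMC and 13 in memory, while Fasl counts ended at 4 or 5 in all 3.

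Clustering each library alone, with the 10 genes kept out of the clustering, gave 9 TdLN, 7 PBMC and 7 memory T cell states of at least 50 cells. In TdLN, Ifng was highest in a cycling cluster led by Cdc6 and Uhrf1 (55.1 CPM, 48.6 to 62.2; 144 cells) and in an effector T-like cluster led by Ccl5, Gzmm and Klrc1 (51.8 CPM, 47.7 to 56.2; 1048 cells), whose intervals overlap. It was lowest in a cluster led by Igfbp4 and Fam46a (3.18 CPM, 2.11 to 4.59; 963 cells). The cells with 5 or more Ifng UMIs were spread over these states, with 33 in the Ccl5 cluster, 24 in the 2 cycling clusters, 13 in a precursor exhausted T-like cluster led by Izumo1r, Ikzf2 and Ctla4, and 11 in a cluster led by Socs3 and Tnfaip3. A TdLN cluster of 28 cells led by Gzmb, S100a4 and Ccr2, under the size limit for states, had 320.4 CPM (247 to 408), from 65 UMIs.

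In PBMC the contrast between states was wider. Ifng had 81.3 CPM (76.1 to 86.9) in the effector T-like cluster of 2115 cells led by Klra9, Gzma and Zeb2, and 61.5 CPM (55.4 to 68.1) in an unnamed cluster of 906 cells led by Ier3, Serpina3g and S100a6. It had 1.30 CPM (0.805 to 1.99) in the naive or central memory T-like cluster of 1329 cells led by Igfbp4, Tmem108 and Ccr7. In memory the 3 large clusters, with 2477, 2158 and 1802 cells, were close to each other at 24.1, 26.4 and 21.8 CPM, and the small effector T-like cluster led by Gzma and Cx3cr1 had 50.5 CPM (40.2 to 62.6; 227 cells).

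**Figure D3:**
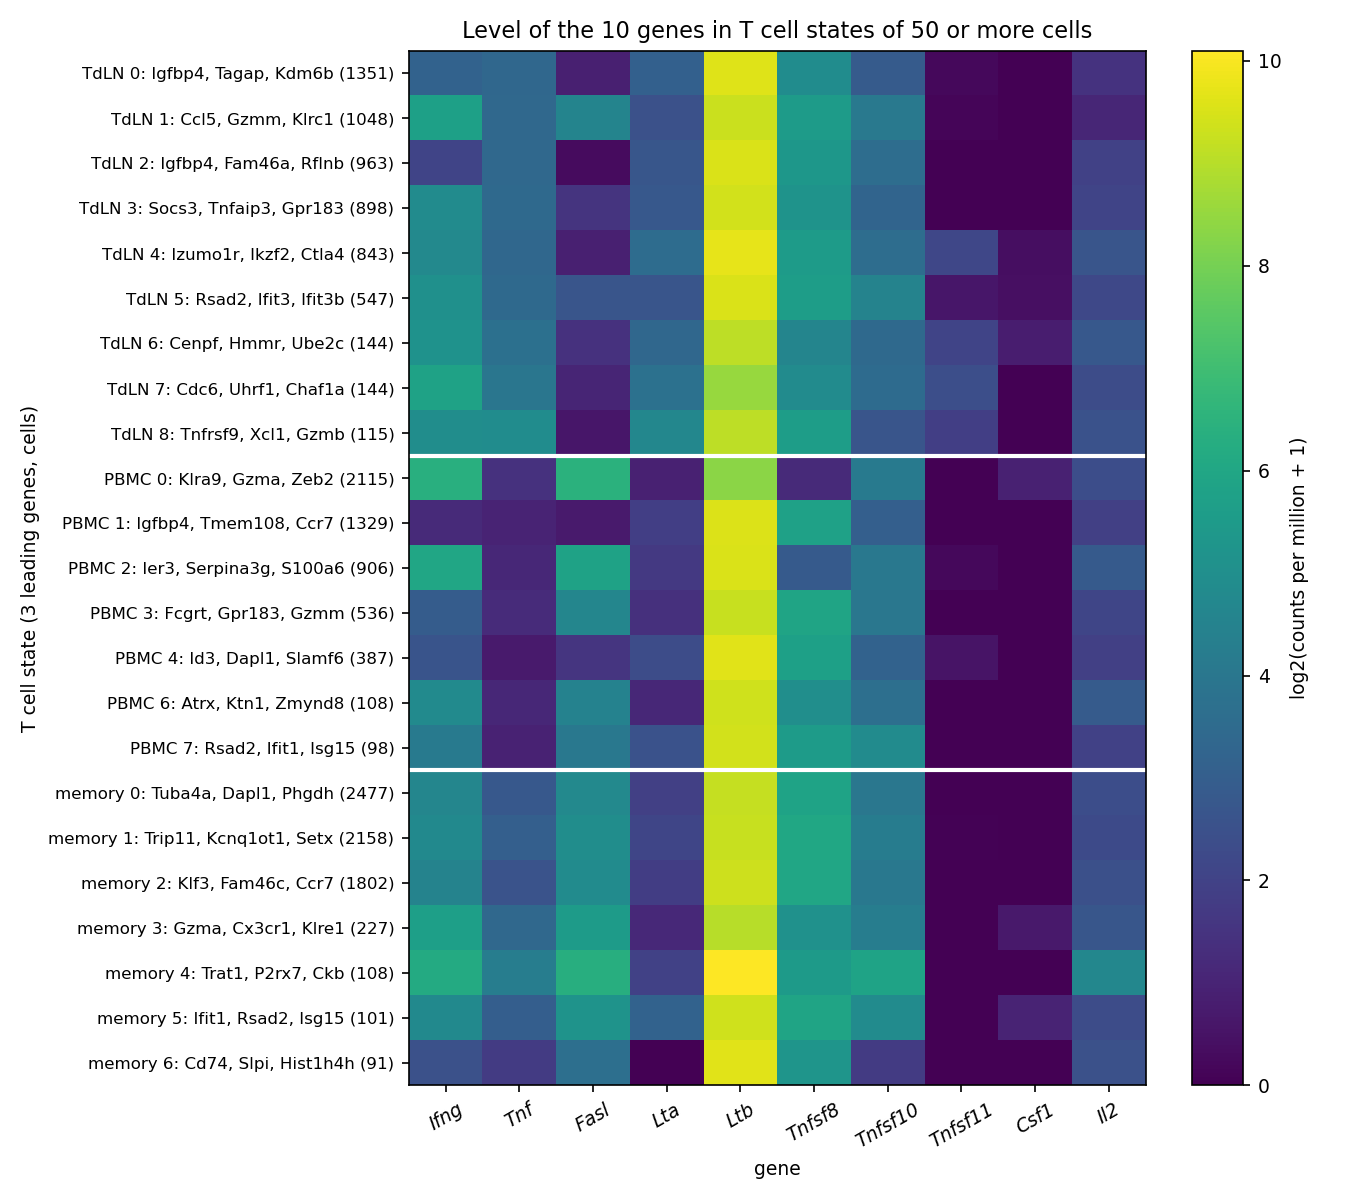
Level of the 10 genes, as log2(CPM + 1), in each T cell state of at least 50 cells, grouped by library (TdLN, PBMC, memory from top to bottom). Fasl and Ifng were high together in 2 PBMC states in which Tnfsf8 was low, Tnf was low in all 7 PBMC states, and the memory state led by Trat1, P2rx7 and Ckb was the highest memory state for Ifng, Tnf, Fasl, Ltb, Tnfsf10 and Il2.

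Fasl was the gene whose level differed most between libraries among the measured 4. It had 5.22 CPM in TdLN (4.69 to 5.79; 358 UMIs), 31.7 CPM in PBMC (30.2 to 33.4; 1517 UMIs) and 28.8 CPM in memory (27.6 to 30.1; 2021 UMIs). TdLN was 5.52-fold lower than memory (4.93 to 6.20) and 6.08-fold lower than PBMC (5.42 to 6.84), while PBMC and memory differed by a ratio of 1.10 (1.03 to 1.18). The thinned shares of cells with a Fasl UMI were 2.07% in TdLN, 15.1% in PBMC and 11.3% in memory. In TdLN, 0 of 74 B cells and 2 of 110 cells with macrophage, monocyte or dendritic markers had a Fasl UMI. No such background could be had elsewhere. The 138 PBMC cells left out for platelet markers had one in 26.1% (median depth 7310 UMIs), and memory had 6 cells of another type. Those 138 cells had 668 CPM of Ltb, 26.8 of Ifng and 38.6 of Fasl, against 632, 29.8 and 31.7 CPM in PBMC T cells. Whether they are T cells was not tested. The thinned shares are therefore not read as shares of expressing cells.

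Within TdLN, Fasl was held by few states. The Ccl5 cluster, with 17.2% of the T cells, held 72.1% of the Fasl UMIs at 22.7 CPM (20.01 to 25.6), which was 12.99-fold the level of the other TdLN T cells (10.3 to 16.5). The cluster led by Igfbp4 and Fam46a had 2 Fasl UMIs in 963 cells. In PBMC the effector T-like cluster had 86.0 CPM (80.6 to 91.7), the Ier3 cluster 54.9, a cluster led by Fcgrt, Gpr183 and Gzmm 24.1 (20.5 to 28.1), and the Ccr7 cluster 0.681 (0.340 to 1.22). In memory Fasl was level across the 3 large clusters, at 25.8, 29.9 and 28.3 CPM. The Ccr7 and Klf3 genes led the third of these, so cells with Ccr7 as a leading gene carried 28.3 CPM of Fasl in memory (25.9 to 30.9) against 0.681 CPM in PBMC; these clusters were built separately and are matched by that gene alone.

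The effector T-like clusters were compared with the other T cells of their own library. Ifng in them was 2.51-fold in TdLN (2.28 to 2.76), 5.60-fold in PBMC (5.03 to 6.25) and 2.05-fold in memory (1.62 to 2.55). Fasl was 17.1-fold in TdLN (13.3 to 22.2), 5.51-fold in PBMC (4.96 to 6.12) and 1.63-fold in memory (1.28 to 2.05). The effector T-like share of T cells was 17.7% for TdLN, 38.4% for PBMC and 3.24% for memory. The memory sort took KLRG1- cells, and its part in that share was not tested. Klrg1 was among the 10 leading genes of the memory effector T-like cluster. The name does not cover equal cells, since 12 effector markers summed to 215 CPM in TdLN, 2523 CPM in PBMC and 577 CPM in memory T cells. The TdLN Ccl5 cluster took it from Gzma, Prf1 and Tbx21, with none of the markers among its 10 leading genes, and at a resolution of 0.4 the cluster led by the same genes had no name, so the TdLN contrast is tied to this clustering. In PBMC these cells were shallower than the others, at median depths of 5039 and 11239 UMIs, and the part of depth was not tested. Between libraries the effector T-like cells differed, with Fasl at 24.0 CPM for TdLN, 86.0 CPM for PBMC and 46.2 CPM for memory. Without the effector T-like clusters, Ifng in PBMC was lower than in memory by 0.76 on the log2 scale and Fasl lower by 0.86, where all T cells gave ratios slightly above 1.

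**Figure D4:**
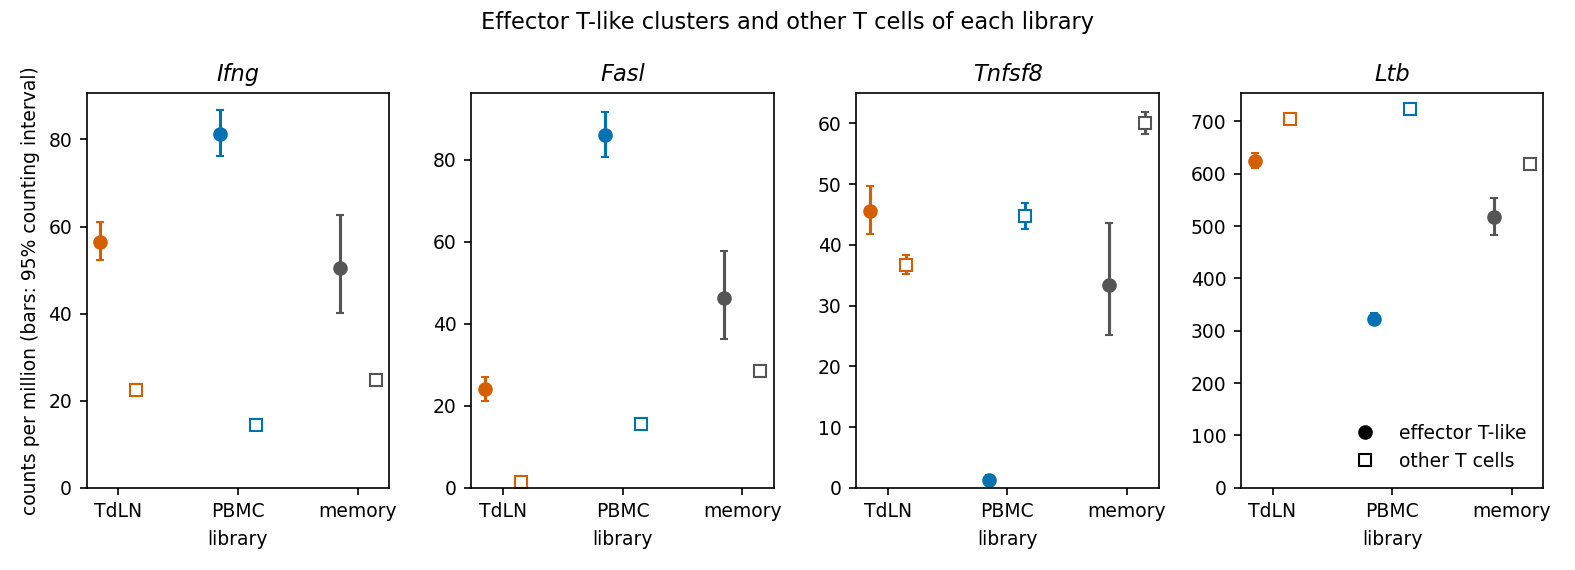
Level (CPM) of Ifng, Fasl, Tnfsf8 and Ltb in effector T-like clusters (filled circles) and in the other T cells (open squares) of TdLN, PBMC and memory, with 95% Poisson intervals. Ifng and Fasl were higher in the effector T-like cells of all 3 libraries, and Tnfsf8 had 1.28 CPM in those of PBMC against 44.7 in the other PBMC T cells.

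The receptor segment changed the picture of the blood. Ifng had 9.52 CPM in PBMC cells with Trbv13-3 alone (7.77 to 11.5; 929 cells) and 45.5 CPM in those with another beta V segment alone (38.9 to 52.8; 486 cells). Fasl had 12.4 CPM in the Trbv13-3 cells (10.4 to 14.7) and 51.8 CPM in the others (44.8 to 59.5). Among Trbv13-3 cells, Ifng in PBMC was 2.89-fold lower than in memory (2.36 to 3.58) and Fasl 2.31-fold lower (1.92 to 2.79), while 3.67% of genes passed 2-fold in that comparison. TdLN then exceeded PBMC for Ifng by 3.52-fold (2.85 to 4.39), where all T cells gave 0.948-fold and where 3.85% of genes passed 2-fold among Trbv13-3 cells, and Fasl in TdLN stayed below PBMC at 0.346-fold (0.257 to 0.464). Fasl in TdLN also stayed below memory, at 4.29 against 28.6 CPM. The PBMC cells with Trbv13-3 alone had a median depth of 11838 UMIs, and those with another segment alone 6275. Only Trbv13-3 or only other segments were read in 340 of 2115 PBMC effector T-like cells, against 1075 of 3399 other PBMC T cells. The effector T-like cells, high in Ifng and Fasl, were thus under-represented among PBMC cells with a read segment. The part of this in the levels of Trbv13-3 cells was not tested.

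Within the PBMC effector T-like cluster the intervals of the 2 kinds of cells overlapped. Its 85 Trbv13-3 cells had 78.0 CPM of Ifng (54.4 to 108.5) and 84.7 CPM of Fasl (60.0 to 116), and its 255 cells with another segment had 82.5 CPM (68.4 to 98.7) and 83.2 CPM (69.0 to 99.5). In the other PBMC T cells they did not overlap: Ifng had 6.56 CPM in Trbv13-3 cells (5.09 to 8.31) and 22.8 CPM in cells with another segment (17.2 to 29.8), and Fasl 9.25 CPM (7.50 to 11.3) and 32.6 CPM (25.7 to 40.7). Trbv13-3 was read in 25.0% of the 340 cells of this cluster with 1 kind of segment (20.5 to 29.96) and in 78.5% of 1075 other PBMC T cells (75.9 to 80.9). The TdLN effector T-like clusters, at 89.1% of 257 cells (84.6 to 92.6), did not show that shift.

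**Figure D5:**
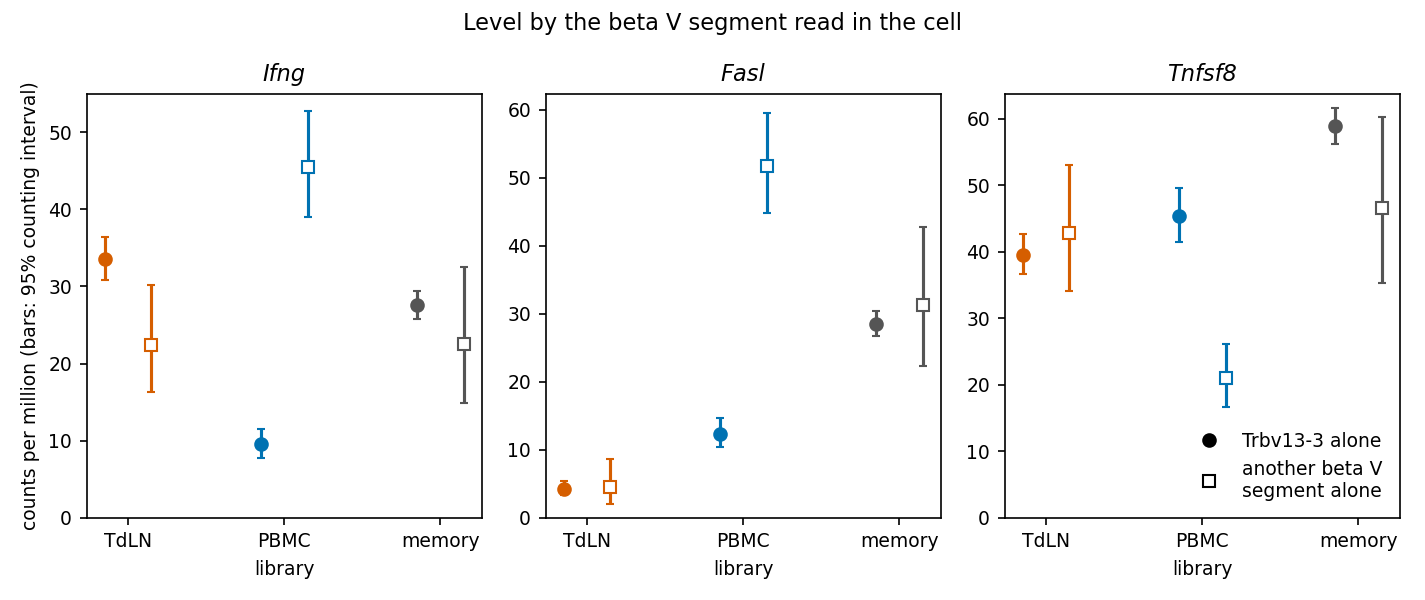
Level (CPM) of Ifng, Fasl and Tnfsf8 in T cells with UMIs of Trbv13-3 alone (filled circles) or of another beta V segment alone (open squares) in TdLN, PBMC and memory, with 95% Poisson intervals. In PBMC the Trbv13-3 cells had 9.52 CPM of Ifng against 45.5 in the cells with another segment, and the intervals did not overlap.

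Tnf separated the blood from the other 2 libraries. It had 10.6 CPM in TdLN (9.84 to 11.4; 727 UMIs), 1.23 CPM in PBMC (0.940 to 1.59; 59 UMIs) and 6.35 CPM in memory (5.77 to 6.97; 445 UMIs). TdLN was 8.59-fold higher than PBMC (6.58 to 11.4), and PBMC was 5.14-fold lower than memory (3.91 to 6.87). The thinned shares of cells with a Tnf UMI were 3.64% in TdLN, 0.598% in PBMC and 2.63% in memory. The difference did not belong to a few states, since the 9 TdLN states ran from 9.23 to 29.1 CPM and the 7 memory states from 2.37 to 18.5, above all 7 PBMC states at 0.647 to 1.73; the lowest memory value rests on 1 UMI in 91 cells. Trbv13-3 cells gave the same contrast, with 11.3 CPM in TdLN, 1.39 CPM in PBMC and 6.88 CPM in memory.

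The TdLN state with the most Tnf, 29.1 CPM (21.9 to 38.0; 115 cells), was led by Tnfrsf9, Xcl1, Gzmb and Irf8, genes that receptor signals can induce. The same state had the most Lta, 24.8 CPM (18.2 to 33.1). It took no name under the marker rule, so its leading genes do not mark it as an activated state. At a finer clustering, a cluster of 127 cells led by Tnfrsf9 and Xcl1 was named recently activated T-like. Only 4 of its 9 measured markers were up there, namely Nr4a1, Nr4a3, Irf8 and Tnfrsf9. Genes that respond to receptor signals or to tissue handling also differed between the libraries: 12 receptor response genes had a summed level of 592 CPM in TdLN, against 205 CPM for PBMC and 134 CPM for memory, and 13 genes of dissociation and AP-1 stress to 2770, 1648 and 1317. In cells without a UMI of Fos, Dusp1 or Egr1, a split chosen after the data were seen, Tnf had 9.61 CPM in TdLN (1159 cells), 1.37 CPM in PBMC (3973 cells) and 6.07 CPM in memory (5967 cells). Ifng in the same cells stood at 13.1 CPM for such cells of TdLN, 40.3 CPM for those of PBMC and 24.6 CPM for those of memory. The PBMC cells without such a UMI had a median depth of 5908 UMIs, against 11880 in the PBMC cells with one. These medians were closer in TdLN, at 9246 and 9868.5, and in memory, at 9899 and 10369.5. The part of receptor signals, handling and depth in these levels was not tested.

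Lta, the soluble lymphotoxin that also joins Ltb at the cell surface, followed Tnf in part. It had 7.84 CPM in TdLN (7.19 to 8.54; 538 UMIs), 2.16 CPM in PBMC (1.76 to 2.61; 103 UMIs) and 2.94 CPM in memory (2.55 to 3.37; 206 UMIs). TdLN was 2.67-fold higher than memory (2.27 to 3.15) and 3.64-fold higher than PBMC (2.94 to 4.54). Among Trbv13-3 cells Lta had 9.63 CPM in TdLN, 2.86 CPM in PBMC and 2.89 CPM in memory. Among TdLN states it was lowest in the Ccl5 cluster, at 4.66 CPM (3.49 to 6.10), where Fasl was highest. The 10 B cell markers, all detected, summed to 250 CPM in TdLN T cells and 122 CPM in memory T cells, and to 104 CPM in PBMC with Ms4a1 at 0; B cells of TdLN also held Lta, and their part in the result was not tested.

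Ltb was detected in most cells of each library. It had 690 CPM in TdLN (684 to 697), 632 CPM in PBMC (625 to 639) and 616 CPM in memory (610 to 622), and the thinned share of cells was 91.2%, 80.5% and 88.3%. TdLN over memory was 1.12-fold (1.11 to 1.14), and PBMC over memory, at 1.03-fold, turned to the other direction when ribosomal and mitochondrial counts were left out of the totals or when each cell had equal weight. Among Trbv13-3 cells TdLN over PBMC was 0.954-fold (0.927 to 0.982), against 1.09-fold in all T cells, and PBMC over memory was 1.16-fold (1.13 to 1.19). States differed more than libraries. The PBMC effector T-like cluster had 323 CPM (313 to 334) against 724 CPM in the other PBMC T cells, the cycling TdLN cluster led by Cdc6 had 373 CPM (356 to 391), and the TdLN and PBMC precursor exhausted T-like clusters had 835 and 805 CPM.

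Tnfsf8 was higher in memory. It had 38.2 CPM in TdLN (36.8 to 39.7; 2622 UMIs), 34.8 CPM in PBMC (33.1 to 36.5; 1662 UMIs) and 59.4 CPM in memory (57.6 to 61.2; 4161 UMIs). TdLN was 1.55-fold lower than memory (1.48 to 1.63) and PBMC 1.71-fold lower (1.61 to 1.81), and neither reached 2-fold; with equal weight per cell PBMC was lower than memory by 1.28 on the log2 scale. Among Trbv13-3 cells PBMC was 1.297-fold lower than memory (1.17 to 1.44), and TdLN over PBMC was 0.872-fold (0.775 to 0.982), against 1.10-fold in all T cells. In PBMC, Tnfsf8 was low in the states where Ifng and Fasl were high. The effector T-like cluster, 2115 cells, held 14 of 1662 Tnfsf8 UMIs (1.28 CPM, 0.699 to 2.14), while the Fcgrt cluster had 58.8 CPM (53.1 to 64.9) and the Ccr7 cluster 53.4 CPM (49.9 to 57.1). The Fcgrt cluster joined both kinds, with 24.1 CPM of Fasl beside its Tnfsf8. TdLN effector T-like cells had 45.6 CPM of Tnfsf8 (41.8 to 49.7), 35.7-fold those of PBMC (21.1 to 65.8). Of the PBMC effector T-like cells, the 85 with Trbv13-3 had 8.92 CPM (2.43 to 22.8; 4 UMIs), against 46.1 CPM (38.3 to 55.1) in the 229 of TdLN, and the 255 with another segment had 0 UMIs. Without regard to the segment, memory effector T-like cells had 33.5 CPM (25.2 to 43.6).

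Tnfsf10, a gene induced by interferons, had 11.5 CPM in TdLN (10.8 to 12.4), 12.4 CPM in PBMC (11.4 to 13.4) and 16.7 CPM in memory (15.7 to 17.7), and among Trbv13-3 cells 11.1, 12.01 and 16.5 CPM. It was higher in the interferon-responding clusters, which were led by Rsad2 and Ifit genes, than in the other T cells of the same library. The ratio was 2.06 in TdLN (1.69 to 2.502), 2.34 in PBMC (1.55 to 3.40) and 1.73 in memory (1.14 to 2.51). Ifng did not follow, at ratios of 1.18 (1.01 to 1.37), 0.547 (0.318 to 0.880) and 1.05 (0.684 to 1.54). In PBMC the other T cells include the effector T-like cluster, at 81.3 CPM of Ifng. The interferon-responding PBMC cluster had 16.5 CPM (9.61 to 26.4). All PBMC T cells outside the effector T-like cluster had 14.5 CPM (13.3 to 15.8).

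Tnfsf11, which drives osteoclasts and lymph node stroma through RANK, gave 83 UMIs in TdLN (1.21 CPM), 3 in PBMC (0.0628 CPM, 0.0129 to 0.183) and 1 in memory (0.0143 CPM, 0.000361 to 0.0795). TdLN over PBMC was 19.3-fold (6.37 to 95.4) and TdLN over memory 84.8-fold (14.8 to 3391), and the width of the intervals comes from the 3 and 1 UMIs. Of the 83 UMIs, 36 lay in the precursor exhausted T-like cluster and 34 in the cycling clusters, against 1 in the Ccl5 cluster. After thinning, 13 TdLN, 3 PBMC and 1 memory cells had a UMI, and no share is compared.

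Csf1 was near the limit of detection, with 13 UMIs in TdLN, 10 in PBMC and 2 in memory, where the floor set for a count of 0 was 3 UMIs. All 10 PBMC UMIs lay in the effector T-like cluster, and 5 of the 13 TdLN UMIs in the 28 cells led by Gzmb, S100a4 and Ccr2. Il2 had 3.19 CPM in TdLN (2.78 to 3.64; 219 UMIs), 3.75 CPM in PBMC (3.22 to 4.34; 179 UMIs) and 4.38 CPM in memory (3.90 to 4.90; 307 UMIs). TdLN was not separated from PBMC for Il2, at 0.853-fold (0.697 to 1.04), nor PBMC from memory, at 0.855-fold (0.707 to 1.03), while TdLN was lower than memory at 0.729-fold (0.610 to 0.870). Among Trbv13-3 cells Il2 had 3.29, 3.88 and 4.11 CPM in the 3 libraries, and TdLN over memory was 0.801-fold (0.575 to 1.102), no longer separated by counting error. In TdLN the Ccl5 cluster was the lowest state for Il2, at 1.14 CPM (0.609 to 1.96), and the precursor exhausted T-like cluster had 5.38 CPM (4.07 to 6.99).

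A memory cluster of 108 cells, resident T-like by its markers and led by Trat1, P2rx7 and Ckb, carried most of the ligands at a higher level than the other memory T cells. Il2 was 5.80-fold higher in it (3.34 to 9.46; 17 UMIs), Tnfsf10 3.51-fold (2.49 to 4.80), Tnf 2.98-fold (1.57 to 5.15; 13 UMIs), Ifng 2.88-fold (2.13 to 3.81), Fasl 2.77-fold (2.08 to 3.62) and Ltb 1.79-fold (1.67 to 1.93). Tnfsf8 had 44.2 CPM there, a ratio of 0.743 (0.504 to 1.06). At a coarser clustering these cells joined the effector T-like cluster and the highest state of Il2 fell to 11.1 CPM, against 24.3 CPM.

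Single cells with both Ifng and Fasl were counted after thinning. In TdLN 24 cells had both, where the product of the 2 shares gives 7.99. In PBMC 192 cells had both against a product of 107.5, and in memory 79 against 74.9. The pair Ifng and Tnfsf8 was seen in 15 PBMC cells where the product gives 63.4, in 56 TdLN cells against 54.2 and in 137 memory cells against 142.7. Ifng and Tnf were seen together in 14 TdLN cells against 14.04, in 6 PBMC cells against 4.27 and in 27 memory cells against 17.4. These counts are per library; pairs within a state were not counted.

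Across the 23 states, the genes whose log2(CPM + 1) was most like that of each member were ranked among 6112 genes. For Ifng they were Ccl4, a chemokine (Pearson r = 0.88), Bhlhe40 (0.88) and Pfkp (0.88). For Fasl they were Dapk2 (0.97), Lrrk1 (0.96) and the chemokine receptor gene Ccr2 (0.95). For Tnfsf8 they were Sh3bp5 (0.83), Rgs10 (0.82) and Tpd52 (0.81), and for Ltb Pgs1 (0.81), Ssbp2 (0.73) and Rflnb (0.71). For Tnf they were Mogs (0.93), Slc35a4 (0.88) and Appbp2 (0.87), for Lta Lpcat3 (0.88), Rpgrip1 (0.86) and Mrpl45 (0.85), for Tnfsf10 Cd164 (0.87), Cfap97 (0.84) and Mbnl1 (0.84), and for Il2 Fam96b (0.83), Asb2 (0.78) and Tmem154 (0.78). States of a library share its depth and its free RNA, and these values describe likeness only. Among the 10 genes, Ifng and Fasl had r = 0.50, and Fasl and Lta r = -0.63.

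Of the 17 receptor genes for these ligands, 4 were measured. Fas, the receptor of Fas ligand, had 20.2 CPM in TdLN, 28.9 CPM in PBMC and 14.1 CPM in memory, and passed 2-fold for PBMC over memory at 2.04-fold. Ifngr1 had 135 CPM in TdLN, 263 CPM in PBMC and 218 CPM in memory, and Il2rb and Il2rg did not pass 2-fold. Ifngr2, named after its values were seen, had 435 UMIs in TdLN (6.34 CPM), 141 in PBMC (2.95 CPM) and 9 in memory (0.128 CPM). Of the 11 other TNF superfamily ligands none reached 20 CPM in any library.

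Of 15 transcription factor genes of cytokine loci, 11 were measured for TdLN over memory, and Tbx21 alone passed 2-fold, with 10.6 CPM in TdLN T cells and 45.9 CPM in memory T cells. Bhlhe40 was 4.01-fold higher in PBMC than in memory, with 31.6 and 7.89 CPM. Of 9 regulators of cytokine mRNA decay, 8 were measured for TdLN over memory and 3 were higher. Zfp36, which encodes tristetraprolin, had 129.6 CPM in TdLN, 34.8 CPM in PBMC and 37.4 CPM in memory, and was 3.47-fold higher in TdLN than in memory. Zfp36l1 was 2.12-fold and Zc3h12a, which encodes regnase-1, 2.07-fold higher in the same comparison, and none of the 7 measured for PBMC over memory passed 2-fold. The median log2 ratio of the decay regulators for TdLN over memory was 0.83, beside 0.16 over all measured genes; Zfp36 was also one of the genes on the list of dissociation and AP-1 stress. Of 16 interferon gamma response genes, 10 were measured in each comparison and none passed 2-fold.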

How the data were processed

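Per the labels' protocols, sorted CD8 T cells were profiled with 10x Chromium 3′ chemistry, 1 library each for TdLN, PBMC and memory. Per the submitters' processing notes, the authors used Cell Ranger 3.1.0 and mm10; the deposited matrices hold raw UMI counts per gene and barcode. The filter on cells (500 or more genes, mitochondrial share of 10% or less) left 6265, 5652 and 7003 of 7503, 6165 and 8321 barcodes. With scanpy 1.11.5, each library was clustered alone (2000 variable genes without the 10 members, 30 components, 15 neighbours, Leiden resolution 0.8). A cluster took a name ending in "-like" from at least 3 markers 1.5-fold up; a name of a non-T type also needed 2 of its markers among the 10 leading genes, a rule set after the clusters were seen. Clusters with non-T names, 184, 138 and 6 cells, were left out. Doublets were not removed: Scrublet marked too few cells to be used. CPM divide summed counts by T cell totals of 68591331, 47794759 and 70104835, with exact Poisson intervals, exact conditional binomial intervals for ratios and a floor of 3 counts for a count of 0. Ratios and calls were tested on simulated data. Genes named beside the 10 are the up to 4 largest ratios per list and the 3 most alike per member. The members and lists were chosen with earlier results of these data known. Positions and 3′ untranslated regions come from GENCODE M21, which held 30934 of 31053 gene IDs, and promoters from a RefSeq table, which held all 10 members. edgeR 4.0.16 gave an alternative scaling of the deposited counts.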

Additional observations from a re-analysis of the deposited data

Results flagged for a closer look

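In cells that the comparisons left out, 3 genes stood above the T cells of their own library. The 74 B cells of the TdLN library had 35.1 CPM of Lta (95% Poisson interval 19.7 to 58.0; 15 UMIs) against 7.84 CPM in TdLN T cells. Ltb had 1022 CPM in the same B cells (928 to 1122) against 690 CPM in the T cells. The 110 cells with macrophage, monocyte or dendritic markers had 13.5 CPM of Csf1 (5.42 to 27.8; 7 UMIs) against 0.190 CPM in the T cells.

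A further 4 results were singled out because the same contrast ran in opposite directions in 2 libraries with intervals on either side of 1; with 1 library per group the differences themselves were not tested. Tnfsf8 in effector T-like over other T cells was 1.24 in TdLN (1.13 to 1.37), against 0.0286 in PBMC (0.0156 to 0.0481) and 0.558 in memory (0.420 to 0.728), which gives 2 of the 4. Ifng in interferon-responding over other T cells was 1.18 in TdLN (1.01 to 1.37) and 0.547 in PBMC (0.318 to 0.880). The other PBMC T cells include the effector T-like cluster, at 81.3 CPM of Ifng. PBMC T cells outside that cluster had 14.5 CPM, against 16.5 CPM in the interferon-responding ones. Lta in interferon-responding over other T cells was 0.650 in TdLN (0.434 to 0.940). In memory it was 2.85 (1.21 to 5.72), from 8 UMIs in the interferon-responding cells.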

How the results depend on the processing

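No paired analysis was possible because each group was 1 library. With the settings used, 1 of the 4 measured genes of the 10 passed 2-fold for TdLN over memory, 0 for PBMC over memory and 1 for TdLN over PBMC. In all, 272, 102 and 211 genes passed, which were 5.88%, 2.32% and 4.6% of the measured genes. Without ribosomal and mitochondrial counts in the totals the gene counts were 447, 187 and 349, and 2 members passed for TdLN over PBMC. With a limit of 5 CPM, 2, 1 and 3 members passed, among 674, 327 and 528 genes; with 100 CPM, 0 members passed for TdLN over memory and 0 for TdLN over PBMC, and the genes were 65, 27 and 53. For PBMC over memory, equal weight per cell gave 1 member, and Trbv13-3 cells gave 2, among 157 genes (3.67% of 4279). Without the effector T-like clusters, 0 members passed for TdLN over PBMC. The cause of these changes was not tested. Apart from the main settings and the Trbv13-3 cells, no share of all measured genes is given here. The member counts of those other settings are therefore not set against a background. Scaling by edgeR's TMM factors moved the median log2 ratio of all genes by -0.13 for TdLN over memory, -0.01 for PBMC over memory and -0.12 for TdLN over PBMC. For Ifng, the log2 ratio of TdLN over memory was 0.16, and became -0.01 with equal weight per cell, -0.13 without the effector T-like clusters and -0.91 in cells with no UMI of Fos, Dusp1 or Egr1, an alternative chosen after seeing the data. The TdLN state with the most Ifng was the cycling one in the main and the joint clustering (55.1 and 44.4 CPM), and one led by Ccl5 at resolutions 0.4 and 1.2 (48.1 and 85.0 CPM). With 1 library per group no replicate could be left out, and genes of a few UMIs, Tnfsf11 and Csf1, are limited by depth.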
